A study of Homo sapiens with 2 samples.

Results

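Invasion of breast cancer cells draws on enzymes that cut the matrix, on receptors that hold the cell to it and on signals that keep the cell mobile. The 9 genes described here were taken by name for these roles: PLAU and PLAUR of the plasminogen system, the metalloproteinase genes MMP1, MMP9 and MMP14, the collagen cross-linking enzyme gene LOX, the hyaluronan receptor gene CD44, the receptor tyrosine kinase gene AXL and the caveola coat gene CAV1. They are 9 of the 19974 protein-coding genes examined on chromosomes 1 to 22 and X. For each gene, every deposited KDM1B peak whose midpoint fell inside the gene or its flanks of 5 kb was taken, and the share of the gene span under peaks was ranked among the 500 protein-coding genes nearest in length. All 9 symbols were found in the annotation.

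The study mapped KDM1B (LSD2), a flavin-dependent demethylase of histone H3 lysine 4, by chromatin immunoprecipitation and sequencing. The ChIP group was 1 anti-FLAG M2 library from the triple-negative breast cancer line MDA-MB-231, in which KDM1B with 3 copies of the FLAG tag was stably expressed from the retroviral vector pOZ. The input group was 1 library of genomic DNA from the same tagged line. Both groups thus carried the tagged protein, and cells without the tag were not analysed here. There were no replicates, so no value has a replicate error and no difference between ChIP and input has a test. The deposited list held 78536 peaks with a value each, unlabelled and taken here as the log2 ratio of ChIP over input. Read counts are not in the list, so sequencing depth is unknown.

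Urokinase, the PLAU product, turns plasminogen into plasmin, and its receptor, the PLAUR product, holds it at the cell surface. Plasmin and the membrane-anchored protease MMP14 activate further proteases that open collagen and basement membrane. CD44 binds hyaluronan, AXL binds the ligand GAS6, and caveolin-1 shapes pits of the plasma membrane. High CD44, AXL and CAV1 expression is known for basal-like and mesenchymal breast cancer lines. The libraries give no RNA levels.

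Peaks were found at 7 of the 9 genes, and at 5 of them they covered more of the gene than at 90% of the genes of like length, a rank that 10.1% of all protein-coding genes reach. That count of 5 was 1 with only the peaks at or above the list's median ratio and 3 under 4 other settings: peaks of 1 kb or wider, peaks whose ratio is a whole multiple of a recurring step left out, peaks per gene ranked in place of cover, and genes of like length with a peak. A peak midpoint in the gene or within 5 kb was present at PLAU, PLAUR, MMP14, LOX, CD44, AXL and CAV1 and absent at MMP1 and MMP9. The background share is 67.5% of all protein-coding genes, so 7 of 9 lies near it. A midpoint inside the gene itself was present at the same 7 genes, against 58.2% of all protein-coding genes. Together the 7 genes held 75 peaks, 65 with the midpoint in the gene and 10 in a flank. They covered 88.4 kb of the 247 kb that the 9 genes span (35.8%), against 5.75% of the summed span of all protein-coding genes. These summed shares are not matched for gene length, and long genes weigh most in them. Cover beside genes of like length is given for each gene below.

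The start regions of these genes are shown first, by whether a peak touched an annotated start window. RefSeq start windows (GRCh38.p14, 250 bases before to 50 after a start) were available for 7 of the 9 genes, all but MMP1 and MMP9. A peak touched a start window by 1 bp or more at 3 of these 7 genes, PLAU, CD44 and AXL, against 34.4% of the 15812 protein-coding genes with a window. The share is near the background. The 250 bases before the start are printed in the direction of transcription. Capitals mark matches, on either strand, to the AP-1 motif TGANTCA, the GC box GGGCGG, the CCAAT box CCAAT and the TATA box TATAAA. The first 3 sequences come from windows that a peak touched, and the last 2 from windows that no peak touched.
PLAU, chr10:73910882-73911131, plus strand: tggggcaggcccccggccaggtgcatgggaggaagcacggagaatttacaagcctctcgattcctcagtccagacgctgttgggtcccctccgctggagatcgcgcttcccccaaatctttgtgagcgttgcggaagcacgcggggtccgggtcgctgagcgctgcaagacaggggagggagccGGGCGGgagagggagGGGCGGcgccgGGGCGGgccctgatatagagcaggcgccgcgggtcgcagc
CD44, chr11:35138921-35139170, plus strand: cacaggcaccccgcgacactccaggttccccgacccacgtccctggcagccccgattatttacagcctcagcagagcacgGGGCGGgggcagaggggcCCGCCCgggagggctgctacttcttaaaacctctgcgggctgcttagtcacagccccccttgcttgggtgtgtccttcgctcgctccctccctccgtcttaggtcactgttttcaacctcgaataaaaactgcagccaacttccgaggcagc
AXL, chr19:41218973-41219222, plus strand: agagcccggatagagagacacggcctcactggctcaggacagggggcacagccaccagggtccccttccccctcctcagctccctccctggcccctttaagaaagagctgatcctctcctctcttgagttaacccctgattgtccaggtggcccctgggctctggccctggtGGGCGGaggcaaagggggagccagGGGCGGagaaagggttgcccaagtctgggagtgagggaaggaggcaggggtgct
PLAUR, chr19:43670170-43670419, minus strand: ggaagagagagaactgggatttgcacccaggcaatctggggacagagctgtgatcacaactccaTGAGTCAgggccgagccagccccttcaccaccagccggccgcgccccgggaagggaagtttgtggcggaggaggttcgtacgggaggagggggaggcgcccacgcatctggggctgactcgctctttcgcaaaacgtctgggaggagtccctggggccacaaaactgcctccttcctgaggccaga
CAV1, chr7:116524759-116525008, plus strand: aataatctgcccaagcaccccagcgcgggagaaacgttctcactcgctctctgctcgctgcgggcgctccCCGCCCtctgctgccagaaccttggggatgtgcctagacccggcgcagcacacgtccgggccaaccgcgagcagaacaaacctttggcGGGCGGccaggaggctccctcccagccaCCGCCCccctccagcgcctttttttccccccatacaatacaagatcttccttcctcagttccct
The PLAU stretch held 3 GC boxes, the CD44 and AXL stretches 2 each and the CAV1 stretch 3. The PLAUR stretch held 1 AP-1 match and no GC box. Over the 22132 start windows of protein-coding genes, an AP-1 match was present in 5.35%, a GC box in 53.7%, a CCAAT box in 32.7% and a TATA box in 8.996%. None of the 5 printed stretches held a CCAAT or TATA match, which depends on the windows chosen for print. The other PLAU window, also touched by a peak, held 1 CCAAT box and no GC box. The second AXL window, touched as well, held no match. Over all 13 windows of the 7 genes, some of which overlap, a GC box stood in 3 of the 5 that a peak touched and in 5 of the 8 that none touched, and a CCAAT box in 1 of the 5 and 2 of the 8. These matches are letters in a window, not measured binding sites.

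PLAU carried peaks on and before its start and again near its end. The gene spans 8.66 kb (chr10:73908832-73917494, plus strand), and 6 peaks lay in it or within 5 kb. A peak of 1757 bp with a log2 ratio of 2.74 (chr10:73909839-73911596) covered both annotated start windows in full. Upstream of it lay 3 shorter peaks, at chr10:73909091-73909654 with a log2 ratio of 2.99, at chr10:73908111-73908611 with 2.82 and at chr10:73905240-73905740 with 2.99. An enhancer with AP-1 and ETS sites upstream of the human PLAU start is known. Whether one of these peaks lies on it was not tested. Downstream, a peak of 1119 bp had a log2 ratio of 2.84 (chr10:73914289-73915408), and one of 921 bp near the end of the gene had 2.43 (chr10:73916513-73917434). No PLAU peak exceeded the list median of 2.99, which both peaks of 2.99 equalled. Peaks covered 50.3% of PLAU, against a median of 4.57% over its 500 genes of like length, of which 46 were covered further. Most of the span of C10orf55, a long noncoding RNA gene, overlaps PLAU, and all 6 peaks lie in it or within 5 kb of it, so peaks cannot be assigned to one of the pair.

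A chain of 16 peaks with gaps between them, all inside the gene, ran along nearly the whole length of PLAUR. The gene spans 24.1 kb (chr19:43646095-43670169, minus strand), and peaks covered 67.1% of it, against a median of 4.26% over its 500 genes of like length, of which 26 were covered further. The annotated start window itself was free, and the nearest peak ended 636 bp inside the gene (chr19:43668676-43669533, log2 ratio 2.27). The next 2 peaks downstream had the highest ratios of the gene, 3.93 at chr19:43667827-43668421 and 3.99 at chr19:43666584-43667699. Those peaks stood above the upper quartile of the list, 3.52, and no other PLAUR peak did.

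The remaining 13 PLAUR peaks had log2 ratios of 1.89 to 3.23. In the direction of transcription these ratios were 2.60, 2.52, 2.27, 2.94, 3.23, 2.57, 1.89, 3.01, 2.74, 2.68, 2.29, 2.49 and 3.21. The widest 2 were 2177 bp (chr19:43650625-43652802) and 2076 bp (chr19:43657951-43660027). The longest stretch of the gene without a peak was 1.97 kb. With the gene in 3 equal parts, the 5′ part was covered to 70.9%, the middle part to 64.8% and the 3′ part to 65.7%. Joining peaks within 1 kb raised the covered share to 85.0%. An unnamed long noncoding RNA gene (LOC124904724) overlaps 1406 bp at the start of PLAUR, and 5 of the 16 peaks lie in it or within 5 kb.

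**Figure D1:**
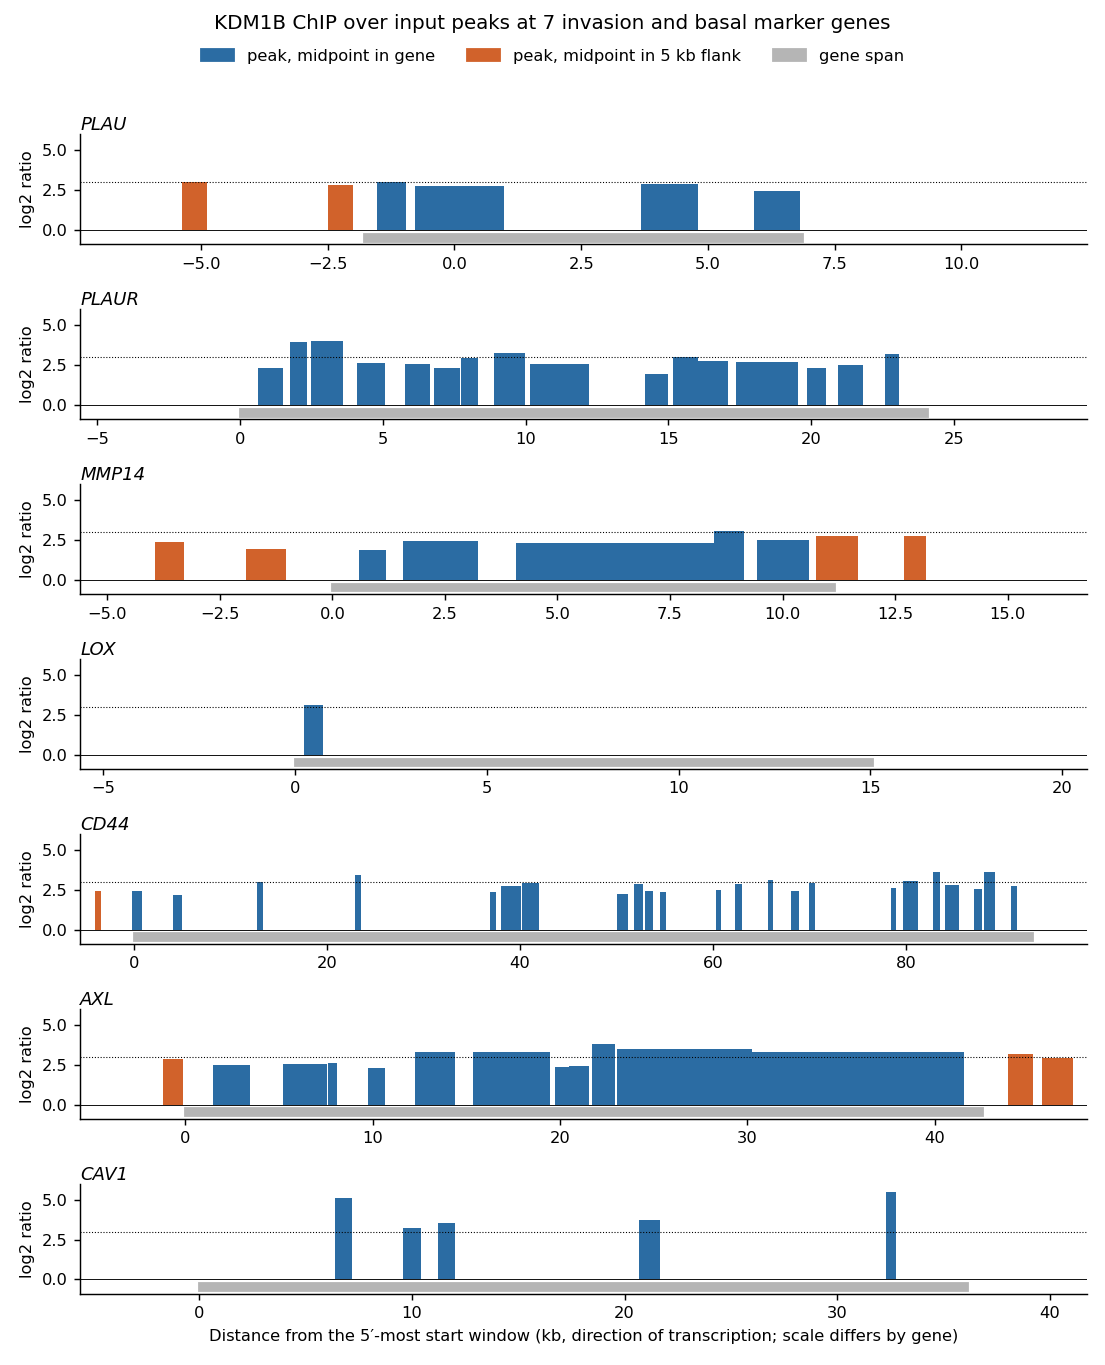
Peaks at the 7 genes that had any, by distance in kb from the 5′-most annotated start in the direction of transcription (x, with a scale of its own per gene) and log2 ratio of ChIP over input (y). Blue boxes are peaks with the midpoint in the gene, orange boxes peaks with the midpoint in a 5 kb flank, grey bars the gene spans and dotted lines the list median of 2.99; AXL, PLAUR and MMP14 show chains of peaks, while CAV1 shows 5 separate ones and LOX a single one.

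MMP14, which encodes a membrane-anchored collagenase also known as MT1-MMP, had the highest covered share of the 9 genes with all peaks, though not with the stronger or the wider peaks alone or with flanks included. The gene spans 11.2 kb (chr14:22836585-22847758, plus strand), and peaks covered 79.7% of it, against a median of 4.62% over its 500 genes of like length. Only 9 of those 500 were covered further. Its 9 peaks began upstream of the start with log2 ratios of 2.37 (chr14:22832635-22833294) and 1.95 (chr14:22834658-22835562), both also in or within 5 kb of the mitochondrial ribosomal protein gene MRPL52. The first 2 peaks inside MMP14 were also within 5 kb of MRPL52. The earlier of them lay 598 bp from the MMP14 start and had a log2 ratio of 1.84 (chr14:22837183-22837767), the lowest of all 75 peaks.

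It was followed by peaks of 2.45 (chr14:22838160-22839826), 2.31 (chr14:22840654-22845068), 3.03 (chr14:22845073-22845739) and 2.47 (chr14:22846010-22847164). The second of these was 4414 bp wide. A peak of 2.74 ran over the end of the gene (chr14:22847333-22848270), and one of 2.72 lay behind it (chr14:22849273-22849781). MMP14 thus combined a high covered share with low ratios: 8 of its 9 peaks stood below the list median. Over the 5 peaks in the gene the median log2 ratio was 2.45, against 2.90 for the 120 genes of like length that had 3 or more peaks, which put MMP14 at percentile 8.33 of them.

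MMP1 and MMP9, which encode an interstitial collagenase and a gelatinase, had no deposited peak in the gene or within 5 kb. MMP1 spans 8.24 kb (chr11:102789919-102798160). The nearest peaks lay 9099 bp below it (log2 ratio 2.99, chr11:102780024-102780820) and 38229 bp above it (3.50, chr11:102836389-102836955). MMP9 spans 7.65 kb (chr20:46008908-46016561), with the nearest peaks 35017 bp below and 23871 bp above it. Genes of that length without any covered base were common, at 47.2% of the 500 compared with MMP1 and 51.8% of the 500 compared with MMP9. The threshold of the peak calling is unknown, so a signal below it would not show.

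MMP1 lies in a cluster of 9 metalloproteinase genes on chromosome 11 (chr11:102520508-102955732), and the whole cluster was sparsely covered. It held 8 peaks over 435 kb and 1.08% of its span was under peaks. MMP3, MMP10 and MMP13 had 1 peak each in the gene or within 5 kb, while MMP7, MMP8, MMP12, MMP20, MMP27 and MMP1 had none. The whole of MMP1 lies inside the transcribed pseudogene WTAPP1.

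LOX encodes lysyl oxidase, which cross-links collagen and elastin. It spans 15.1 kb (chr5:122063195-122078259, minus strand) and had 1 peak of 502 bp with a log2 ratio of 3.09 (chr5:122077526-122078028). That peak lay 0.231 to 0.733 kb inside the gene from its 5′-most start. It touched none of the 3 annotated start windows. Peaks covered 3.33% of LOX, against a median of 4.11% over its 500 genes of like length, of which 273 were covered further. LOX lies wholly inside the span of the protein-coding gene SRFBP1, which had 4 peaks in or within 5 kb of its span, the LOX peak among them.

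CD44, the longest of the 9 genes at 93.2 kb (chr11:35139171-35232402, plus strand), held the most peaks, 24, of which 23 lay in the gene. Peaks covered 22.5% of it, against a median of 1.90% over its 500 genes of like length, and 48 of those were covered further. The annotated start lay under a peak of 1000 bp with a log2 ratio of 2.40 (chr11:35138932-35139932), which covered 288 of the 300 bp of the start window. A flank peak upstream (2.43, chr11:35135054-35135703) lay in the divergent noncoding gene CD44-DT.

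After the start the CD44 peaks were far apart and then came in groups. Peaks of 2.18, 2.99 and 3.46 stood at 4.46, 13.0 and 23.2 kb from the start, followed by the longest stretch without a peak, 13.4 kb (chr11:35162640-35176033). A group of 3 peaks between 36.9 and 42.0 kb had log2 ratios of 2.36, 2.75 and 2.94, and 4 peaks between 50.01 and 55.2 kb had 2.23, 2.87, 2.40 and 2.36.

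Farther along, 5 peaks between 60.3 and 70.6 kb had log2 ratios of 2.47, 2.84, 3.09, 2.40 and 2.95. The last 7 peaks, between 78.5 and 91.5 kb, had 2.62, 3.07, 3.59, 2.77, 2.55, 3.62 and 2.72. The highest CD44 ratios were thus in this last group, at chr11:35221995-35222754 (3.59) and chr11:35227236-35228390 (3.62). Of 3 equal parts of the gene, the 5′ part was covered to 8.88%, the middle part to 28.3% and the 3′ part to 30.4%. Exons are not given in the annotation used here, so whether peaks lay on the variable exons of CD44 was not examined.

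AXL had the widest peaks of the 9 genes. The gene spans 42.5 kb (chr19:41219223-41261766, plus strand), and 14 peaks lay in it or within 5 kb, of which 11 were 1 kb or wider. Peaks covered 78.8% of AXL, against a median of 4.64% over its 500 genes of like length, and 14 of those were covered further. The peak before the start (chr19:41218048-41219079, log2 ratio 2.87) ended 144 bp short of it and covered 107 of the 300 bp of the start window. A second annotated start, 7.53 kb into the gene, had its window fully under a peak of 2378 bp (chr19:41224431-41226809, log2 ratio 2.52).

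The 2 widest peaks of AXL were the last 2 inside the gene, after a mixture of short and wide ones. Over the first 10.7 kb lay 4 peaks of 2.496 (chr19:41220702-41222674), 2.52, 2.58 (chr19:41226822-41227322) and 2.28 (chr19:41228973-41229901). From 12.3 kb on came peaks of 3.27 (chr19:41231507-41233642), 3.31 (chr19:41234586-41238690), 2.33 (chr19:41238960-41239679), 2.42 (chr19:41239723-41240773) and 3.80 (chr19:41240940-41242162). The series ended in a peak of 7197 bp (3.49, chr19:41242261-41249458) and one of 11319 bp (3.30, chr19:41249480-41260799). These last peaks lay 22 bp apart and stood at width percentiles 99.3 and 99.7 of the list. Of 3 equal parts of AXL, the 5′ part was covered to 54.1%, the middle part to 89.3% and the 3′ part to 93.0%. Behind the gene lay 2 flank peaks (3.20, chr19:41263131-41264465, and 2.94, chr19:41264935-41266617) inside the span of the neighbour HNRNPUL1, which encodes an RNA-binding protein and was itself covered to 89.4%.

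CAV1 encodes caveolin-1, the main coat protein of caveolae, and showed the opposite pattern: few, separate peaks with high ratios. The gene spans 36.2 kb (chr7:116525009-116561185, plus strand), and its 5 peaks, all in the gene, covered 10.96%, against a median of 4.33% over its 500 genes of like length. Of these, 171 were covered further. No peak touched any of its 3 annotated start windows. In the direction of transcription the peaks had log2 ratios of 5.10 (chr7:116531369-116532188), 3.25 (chr7:116534568-116535457), 3.55 (chr7:116536234-116537014), 3.76 (chr7:116545701-116546677) and 5.49 (chr7:116557302-116557802).

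All 5 CAV1 peaks stood above the list median, and they include the 2 highest values of all 75. Their median of 3.76 compared with 2.98 for the 230 genes of like length that had 3 or more peaks (percentile 91.7). The peaks of 5.10 and 5.49 are linear ratios of exactly 13 and 17 times a step of 2.64 that recurs throughout the list. A ratio of read counts takes this form when the input count is very low, among other cases, and the counts are not given. Of the 2834 peaks above a log2 ratio of 5, 91.6% were whole multiples, against 12.4% of all peaks. The step was itself chosen to fit the top 1% of ratios, which are among those peaks. The higher share is thus partly fixed by that choice. Without the CAV1 peaks of 5.10 and 5.49 the highest CAV1 value was 3.76 and the median 3.55.

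**Figure D2:**
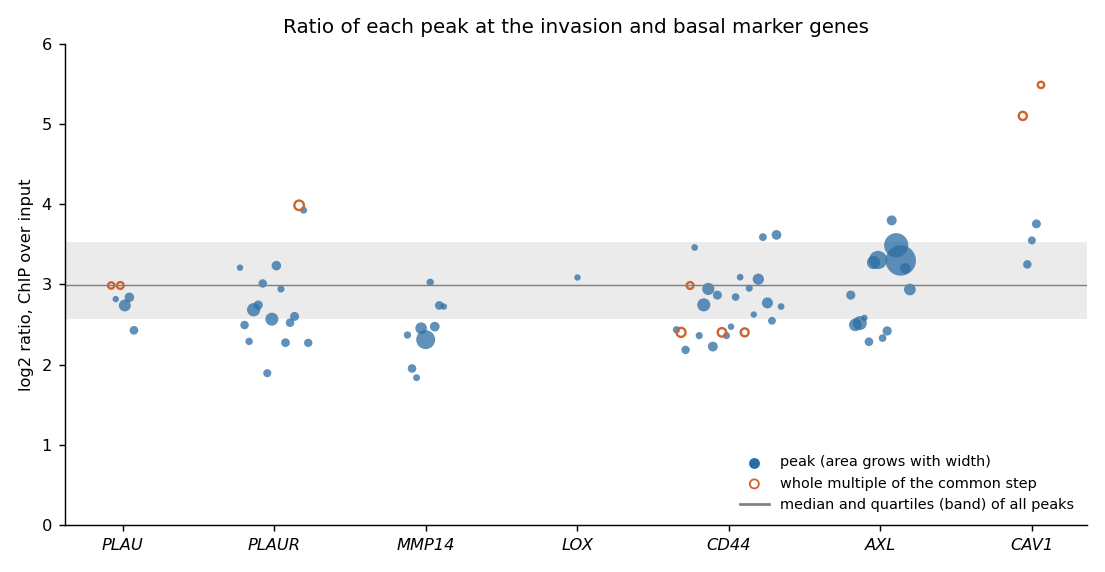
Ratio of ChIP over input on the log2 scale (y) for each of the 75 peaks at the 7 genes (x), with the area of a point growing with the width of the peak. Open orange circles are whole multiples of the common step, and the grey line and band give the median (2.99) and quartiles (2.58 and 3.52) of all peaks; the CAV1 peaks all lie above the median and the PLAU peaks at or below it.

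Across the 75 peaks the log2 ratios ran from 1.84 to 5.49 with a median of 2.74, and 23 (30.7%) stood above the median of the whole list. The peaks had a median width of 894 bp, against 804 bp for the whole list, and 29 (38.7%) were 1 kb or wider, against 28.4% of the list. These wide peaks were spread unevenly, with 11 at AXL, 8 at CD44, 5 at PLAUR, 3 at MMP14, 2 at PLAU and none at LOX and CAV1. Whole multiples made up 9 of the 75, close to their share of 12.4% in the list. Peaks of one gene share its chromatin and copy number and are not independent.

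The genes covered furthest did not have the highest median ratios. Of the 6 genes with 3 or more peaks inside, 5 had a median log2 ratio below that of their genes of like length: MMP14 (2.45), AXL (2.58), PLAUR (2.64), CD44 (2.75) and PLAU (2.79), at percentiles 8.33 to 39.2. CAV1 alone stood above. Over the 6342 protein-coding genes with 3 or more peaks inside, the median of the gene medians was 2.88 for the 1130 genes covered to 50% or more, 2.90 for the 1463 covered to 25 to 50% and 3.04 for the 3749 covered less. These are medians over peaks, each peak counting once whatever its width, so the 2 widest AXL peaks weigh no more than its short ones. Those AXL peaks had log2 ratios of 3.49 and 3.30. Peaks at or above the list median covered 61.1% of AXL, so its low median does not describe most of its covered span.

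In covered share the order was MMP14 (79.7%), AXL (78.8%), PLAUR (67.1%), PLAU (50.3%), CD44 (22.5%), CAV1 (10.96%), LOX (3.33%) and MMP1 and MMP9 (0%). Without replicates no error can be set on neighbours in this order. With peaks within 1 kb joined, MMP14 was covered to 94.6%, PLAUR to 85.0% and AXL to 82.5%, so the order of the last pair turned. AXL came ahead of MMP14 under 3 other settings. AXL was covered to 61.1% by peaks at or above the list median, against 5.96% for MMP14, 17.4% for PLAUR and 6.50% for PLAU. With peaks of 1 kb or wider AXL was covered to 73.8% and MMP14 to 64.7%, and with 5 kb on each side to 71.7% and 54.8%. The median over the 9 genes was 22.5%, against 1.52% over all protein-coding genes.

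Ranked among the 500 genes of like length, 5 of the 9 genes reached percentile 90 or more of the covered share, against 10.1% of all protein-coding genes. They were MMP14 (98.2), AXL (97.2), PLAUR (94.8), PLAU (90.8) and CD44 (90.4). CAV1 stood at 65.8, LOX at 45.4, MMP9 at 25.9 and MMP1 at 23.6, where genes without a covered base share a rank. With only the stronger peaks, those at or above the list median, AXL alone kept this rank (97.8), while PLAUR moved to 85.0, CD44 to 83.0, CAV1 to 78.4, PLAU to 72.6 and MMP14 to 69.6. Counted by peaks per gene, among genes of like length with a peak, with peaks of 1 kb or more only, or without whole multiples, 3 genes reached it.

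**Figure D3:**
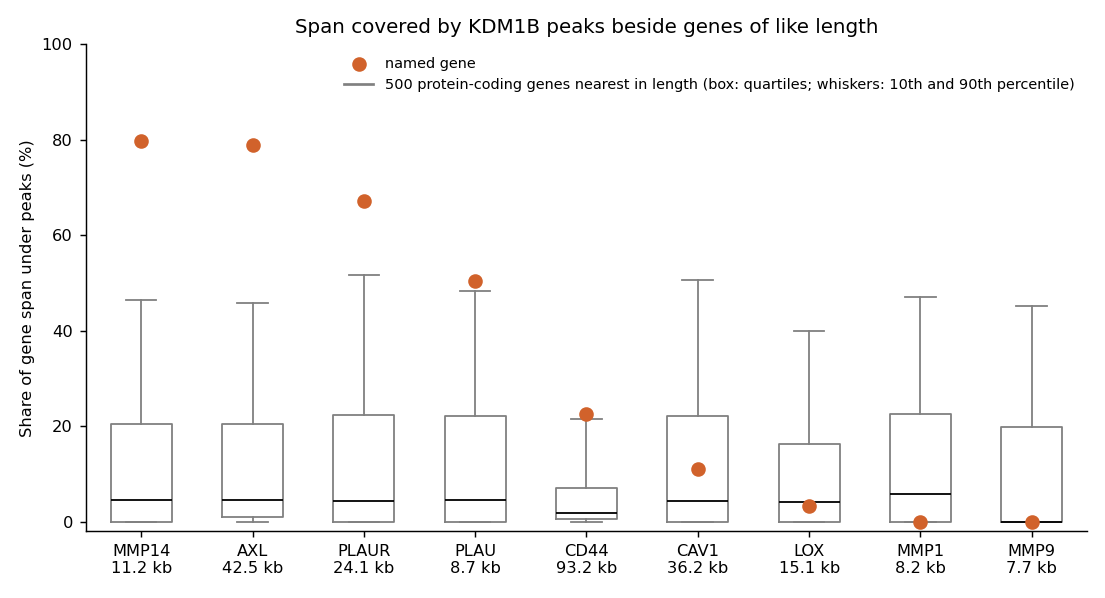
Share of the gene span under peaks in percent (y) for each of the 9 genes (orange points, with gene length under the name) beside the 500 protein-coding genes nearest in length (grey boxes for quartiles, black lines for medians, whiskers for the 10th and 90th percentile). MMP14, AXL and PLAUR lie far above the upper whisker, PLAU and CD44 just above it, and MMP1 and MMP9 at 0.

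Location was compared in 2 ways, since peak density differs along the genome. In the 500 kb on each side of a gene, with the gene left out, the covered share was 10.3% around MMP14, 10.3% around AXL, 6.68% around PLAUR, 15.1% around PLAU, 2.11% around CD44, 0.865% around CAV1 and 0.519% around LOX. The surroundings of MMP1 and MMP9, which have no cover of their own, stood at 3.18% and 8.95%. Cover exceeded that of the surroundings at 7 of the 9 genes, against 39.4% of all protein-coding genes. Having a peak favours this result: of the protein-coding genes with a peak midpoint inside, 66.3% exceeded their surroundings. The ratio of the gene to its surroundings ran from 3.33 at PLAU to 12.7 at CAV1 among the 7. Among 200 genes alike in length and in the cover of their surroundings, a comparison chosen after the data were seen, MMP14 stood at percentile 98.5, AXL at 96.0, PLAUR at 95.5, CD44 at 92.0, PLAU at 86.0, CAV1 at 85.5, LOX at 65.0, MMP1 at 31.2 and MMP9 at 18.8.

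Among the 100 genes nearest in length on the same chromosome, MMP14 stood at percentile 97.0, AXL at 94.0, PLAUR at 91.0, CD44 at 90, PLAU at 86.0, CAV1 at 74.0, LOX at 47.0, MMP1 at 22 and MMP9 at 15.5. AXL and PLAUR are both on chromosome 19. PLAU was thus the one gene of the 5 that fell below percentile 90 in both comparisons of location.

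**Figure D4:**
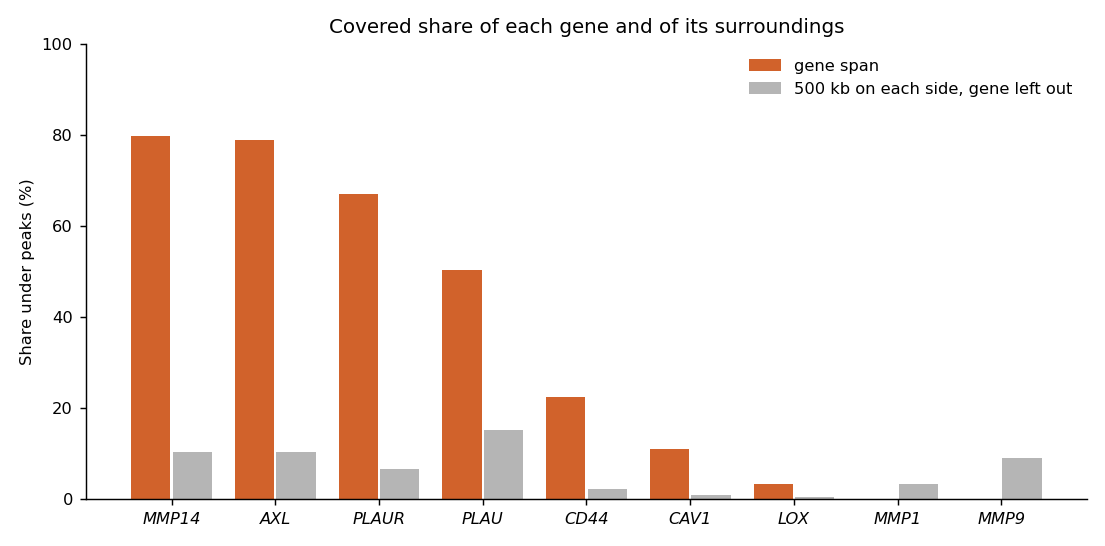
Share under peaks in percent (y) of each gene span (orange bars) and of the 500 kb on each side of it with the gene left out (grey bars), for the 9 genes (x). The orange bar is the taller one at MMP14, AXL, PLAUR, PLAU, CD44, CAV1 and LOX, and MMP1 and MMP9 have a grey bar only.

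Relatives and partners of the 9 genes were described by 9 lists of the same families and pathways. Invadopodium genes, which build the matrix-degrading protrusions of invading cells, had a peak in 12 of 12, and their median percentile of covered share was 77.5. The cortactin gene CTTN was covered to 94.6%, the talin gene TLN1 to 62.9% and the fascin gene FSCN1 to 33.97%. The list of other invasion proteases and related enzymes, mostly cathepsins, ADAMs and serine proteases, had a peak in 18 of 20 with a median percentile of 61.0. It was led by CTSZ (86.1% covered), the proprotein convertase gene FURIN (42.0%), whose product activates pro-MMP14, and ADAM15 (30.4%).

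Closest to PLAU and PLAUR, the other plasminogen system genes had a peak in 10 of 16 with a median percentile of 50. The plasminogen-binding annexin gene ANXA2 (44.2%) and the enolase gene ENO1 (39.9%), whose product also binds plasminogen at the cell surface, were covered most, while PLG, the plasminogen gene itself, had no peak. The other MMP genes had a peak in 11 of 20 with a median percentile of 30.5, and none reached percentile 90. MMP23B (37.99%), MMP25 (9.83%) and MMP21 (8.88%) led them. Metalloproteinase inhibitor genes had a peak in 4 of 6, with TIMP2 at 21.3% and TIMP3 and RECK at 1.02% and 0.669%.

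For CD44, the list of hyaluronan genes and CD44 partners had a peak in 12 of 16 with a median percentile of 41.3, led by EZR (38.1%), which encodes the linker ezrin, and the hyaluronidase genes HYAL3 (24.7%) and HYAL2 (14.5%). The AXL relatives and ligands had one in 4 of 4, with GAS6, the AXL ligand gene, covered to 31.3% and the receptor genes TYRO3 and MERTK to 12.9% and 8.68%. Caveolin and cavin genes had one in 7 of 8, with CAVIN1 at 43.1%, EHD2 at 14.7% and CAVIN4 at 8.09%. The other lysyl oxidase genes had one in 3 of 4. LOXL2 stood out among them with 34.5% of its span covered by the peaks in and around it, 37 in all, ahead of LOXL3 (15.7%) and LOXL4 (7.32%). The counts stand beside the 67.5% of all protein-coding genes, and differences between the lists were not tested. That share is not matched for length. Of the genes of like length, 56.0% had a peak for MMP9 (7.65 kb) and 79.8% for CD44 (93.2 kb). Median gene length was 13.7 kb for the other MMP genes, 55.0 kb for the invadopodium genes and 72.2 kb for the AXL relatives and ligands.

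**Figure D5:**
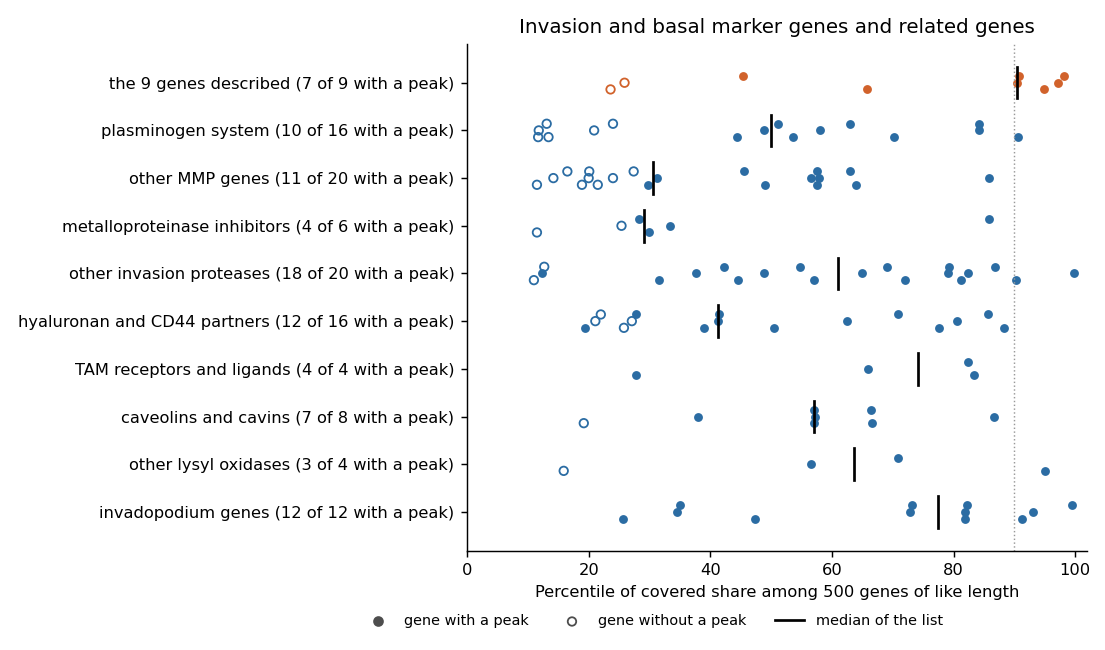
Percentile of the covered share among the 500 protein-coding genes nearest in length (x) for each gene of the 9 genes described (orange, top) and of 9 related lists (blue); filled points are genes with a peak in the gene or within 5 kb, open points genes without one, black bars list medians and the dotted line percentile 90. The 9 genes have a median of 90.4, and the list medians below run from 29.1 to 77.5.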

How the data were processed

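The submitters' processing notes name Trim Galore 0.4.5, Bowtie2 2.2.9 and the build hg38. Which caller made the peaks, and its thresholds, was not given in the sources used here. The deposited list gives position and log2 ratio of ChIP over input per peak as the authors made it. The log2 scale was settled from the values: linear ratios recur at multiples of a step of 2.64. The step is the most common ratio divided by 3, the lowest divisor under which nearly every ratio among the top 1% became a whole multiple (tolerance 1e-06). Ratios were compared only between peaks of the list. Coordinates are printed as deposited, and starts were taken to count from 0 for covered bases.

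Gene spans came from RefSeq (GRCh38.p14), and strand and starts from its start windows. The covered share is the bases of the gene span under peaks divided by its length. A percentile gives the share of the compared genes with lower cover, ties split evenly. Computation used Python 3.11.15, numpy 2.4.6 and pandas 2.3.3 and was tested on simulated data. No test was made, since each group holds 1 library. Depth is unknown. The 9 genes were named in full, with at most 3 genes of each related list, those with a peak and the highest covered share. One gene that this rule names is not reported here. Genes sharing a peak with one of the 9 were named too. PLG and the neighbours of MMP1 in its cluster fall outside this rule and were named after their values were seen. The genes and lists were chosen with earlier results of these data known. Alternatives were other flanks, any overlap, stronger, wider or joined peaks and other sets of genes of like length. Leaving out whole multiples and matching on surroundings were added after the data were seen.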

Additional observations from a re-analysis of the deposited data

How the results depend on the processing

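The count of genes with a peak was 7 under most settings, 5 with peaks of 1 kb or wider and 8 with 10 kb flanks, where MMP1 gained one. Of all protein-coding genes, 36.1% had a peak of 1 kb or wider and 71.3% had one with 10 kb flanks, against 67.5% in the main setting. Under the other settings that share ran from 55.7% to 67.9%. The 75 peaks became 26 among the peaks at or above the list median, 29 at 1 kb or wider and 36 when joined within 1 kb, and 65 to 83 under the other settings. The median covered share of 22.5% was 5.96% with these stronger peaks, 11.9% with peaks of 1 kb or wider, 26.2% when joined, 19.3% without whole multiples and 21.2% with 5 kb on each side. Over all protein-coding genes the median of 1.52% was 0% with the stronger and with the wider peaks. It was 1.54% when joined, 1.05% without whole multiples and 2.78% with 5 kb on each side. The median percentile of 90.4 was 72.6 with these stronger peaks, 88.0 with peaks of 1 kb or wider, 88.6 when joined, 89.0 without whole multiples and 83.0 with 5 kb on each side. With other genes compared it was 90.5 (200 genes), 90.3 (1000 genes), 89.2 (within 25% of the length), 86.6 (genes with a peak, which leaves out MMP1 and MMP9), 86.0 (same chromosome) and 86.0 (like surroundings), and 84.6 with peaks per gene ranked. The 5 genes at percentile 90 or more became 1 with these stronger peaks, and 3 with peaks of 1 kb or wider, without whole multiples, with peaks per gene ranked and among genes with a peak. The other settings gave 4 or 5. Over all settings AXL ranged from 84.6 to 97.8, MMP14 from 69.6 to 99.2, PLAUR from 85.0 to 99.8, PLAU from 72.6 to 91.3, CD44 from 83.0 to 92.7, CAV1 from 28.8 to 85.5 and LOX from 19.6 to 65.0. The cause of these moves was not tested, beyond the fewer peaks that the stricter settings keep. No paired analysis was possible because each group holds 1 library. Without read counts, how precise single ratios are cannot be given.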
